A study of Homo sapiens with 24 samples.

Results

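The genes followed here code for the apolipoproteins of a liver cell and for the transfer protein that loads them with lipid. They are APOA1, APOA2, APOB, APOC1, APOC3, APOE, APOH, APOM and MTTP, taken by gene name from a table of 18915 genes, and 9 of 9 passed the filter on low counts that left 12685 genes for testing. The RNA came from HepG2, a hepatoma cell line that still makes many plasma proteins of the hepatocyte. Cells received fresh medium for 10 h with DMSO as vehicle, 50 nM ISRIB, 20 µM nelfinavir, 50 nM bortezomib, bortezomib together with nelfinavir, or bortezomib together with ISRIB, at the same concentrations as alone. Each of the 6 groups had 4 libraries, described in the labels as biological replicates, and all came from this single cell line. Bortezomib inhibits the proteasome, nelfinavir is an HIV protease inhibitor that raises signalling through phosphorylated eIF2α, and ISRIB blunts the effect of that phosphorylation on translation. The comparisons ask how the genes for lipoprotein proteins responded to proteasome inhibition and to the pathway through eIF2α and the transcription factor ATF4.

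Apolipoproteins are the protein part of lipoproteins, the particles that carry triglycerides and cholesterol in blood. In the hepatocyte the microsomal triglyceride transfer protein, the product of MTTP, adds lipid to apolipoprotein B while it enters the endoplasmic reticulum, and apolipoprotein B that is not lipidated is degraded, in part by the proteasome. Apolipoproteins A-I and A-II are the main proteins of high-density lipoprotein, and apolipoproteins C-I, C-III and E move between particles and tune lipolysis and uptake. Apolipoprotein M carries sphingosine-1-phosphate, and apolipoprotein H, also called β2-glycoprotein I, binds anionic phospholipids.

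The libraries held 5154533 to 6943164 counted reads. Levels are given as CPM, the reads of a gene scaled to a common library size with TMM, a method that assumes most genes do not change, and each mean is followed by its SD over 4 libraries. Reads of mitochondrial genes took 20.0 to 23.1% of a DMSO library and 32.8 to 35.5% of a bortezomib library, and TMM factors ran from 1.19 to 1.24 for DMSO but from 0.846 to 0.869 for bortezomib. The part of these shifts in the results was not tested beyond the alternative scalings given beside them. All 8 markers of hepatocytes that were listed were measured, with a summed level of 9765 to 11390 CPM in DMSO and 7527 to 8359 with bortezomib. With bortezomib 5 of the 8 were called lower and 0 higher, beside 25.8 and 27.6% of all genes tested. Of these markers 2 fell by 2-fold or more, and the median log2 fold change over the 8 was -0.275. Fibroblast markers summed to at most 1.26 CPM in any library, CD14, the 1 blood cell marker measured, reached at most 2.32, and markers of endothelium were not analysed here. In bulk RNA, a loss in part of the cells and a smaller loss in every cell cannot be told apart.

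The 9 genes together took 1.18% ± 0.03 (SD, n = 4) of all reads in the DMSO libraries. APOB ranked 20th of 12685 genes by mean level in DMSO, APOA2 24th, APOA1 30th and APOH 37th. APOC1 ranked 165th, APOE 251st, APOC3 633rd, MTTP 2005th and APOM 4303rd. The library kit gives reads near the 3′ end of a transcript, so these levels were not divided by transcript length. With bortezomib the same 9 genes took 0.574% ± 0.026 of reads, and with bortezomib and nelfinavir 0.433% ± 0.044. Counted without mitochondrial reads, the share ran from 1.48 to 1.53% in DMSO and from 0.816 to 0.905% with bortezomib, and these ranges did not overlap.

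**Figure D1:**
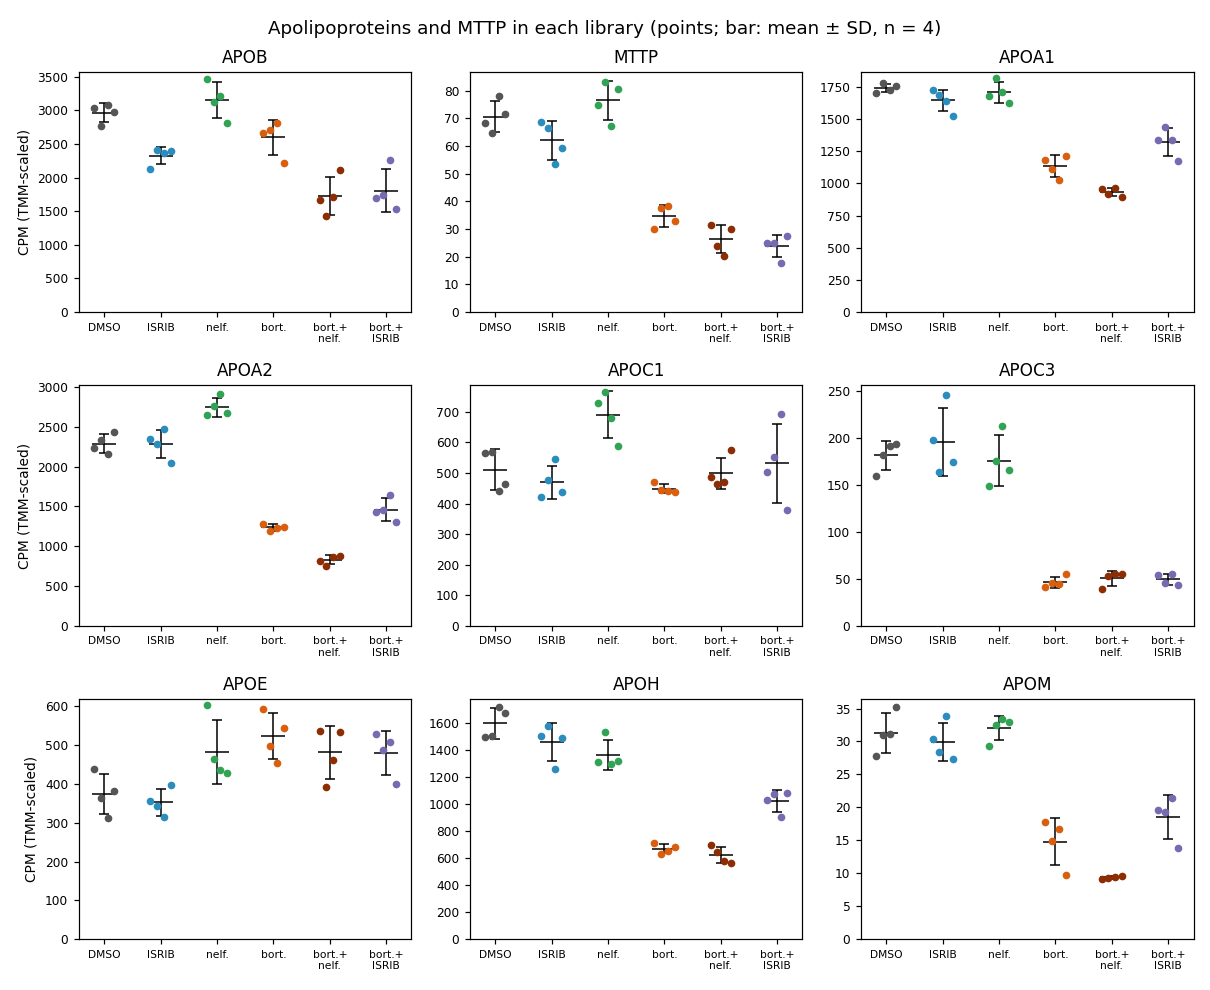
Level of each of the 9 genes in CPM after TMM scaling (vertical axis, from 0) in the 6 treatment groups (horizontal axis). Points are single libraries and the bar with whiskers is the mean ± SD, n = 4. APOC3 sat between 159 and 193 in DMSO and between 40.8 and 54.7 with bortezomib, while APOE was higher with bortezomib than with DMSO.

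Reference promoters were matched for 6 of the 9 genes, and not for APOB, APOA1 and APOC3. The stretches shown are the 250 bases before the start site of the 4 genes among these whose RNA fell with bortezomib, read on the coding strand from RefSeq on GRCh38.p14. MTTP has a pair of listed starts, and the downstream one is shown, at chr4:99574574-99574823 on the plus strand. APOA2 is at chr1:161223629-161223878 on the minus strand, APOH at chr17:66229416-66229665 on the minus strand and APOM at chr6:31655644-31655893 on the plus strand. Capitals mark matches to the binding motifs searched, which were those of liver factors and of stress factors.
MTTP: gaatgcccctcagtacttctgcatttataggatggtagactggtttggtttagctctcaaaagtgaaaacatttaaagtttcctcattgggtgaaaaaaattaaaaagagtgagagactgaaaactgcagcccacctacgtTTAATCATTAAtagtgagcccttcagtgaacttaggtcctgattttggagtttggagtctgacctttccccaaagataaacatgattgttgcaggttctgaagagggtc
APOA2: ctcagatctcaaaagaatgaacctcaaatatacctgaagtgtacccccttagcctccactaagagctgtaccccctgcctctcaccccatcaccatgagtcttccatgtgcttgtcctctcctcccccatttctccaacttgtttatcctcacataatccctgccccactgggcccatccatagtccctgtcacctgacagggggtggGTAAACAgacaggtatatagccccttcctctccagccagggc
APOH: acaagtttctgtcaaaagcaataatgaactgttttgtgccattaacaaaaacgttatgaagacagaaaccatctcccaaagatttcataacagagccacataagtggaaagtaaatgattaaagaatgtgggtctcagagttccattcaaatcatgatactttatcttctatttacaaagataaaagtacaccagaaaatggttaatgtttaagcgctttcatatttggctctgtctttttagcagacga
APOM: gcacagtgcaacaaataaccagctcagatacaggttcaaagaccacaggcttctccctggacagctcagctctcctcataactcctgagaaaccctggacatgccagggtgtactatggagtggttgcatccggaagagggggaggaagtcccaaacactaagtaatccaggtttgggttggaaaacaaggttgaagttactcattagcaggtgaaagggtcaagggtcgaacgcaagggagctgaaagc

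The MTTP stretch held the HNF1 motif TTAATNATTAA, from base -109 to base -99 before the start, and 0.0883% of the 35116 promoters of this length held a match. The stretch before the upstream start of MTTP, which is not shown, held no match to any of the 8 motifs. The APOA2 stretch held the FOXA motif TGTTTAC on the opposite strand, from base -42 to base -36, against 2.98% of all promoters. The printed stretches of APOH and APOM held no match to any of the 8 motifs. Neither they nor the other member promoters in the table matched the HNF4 motif CAAAGTCCA, the direct repeat AGGTCANAGGTCA, the C/EBP motif TTGCNNAA, the ATF4 element TGATGNAA, the endoplasmic reticulum stress element or the heat shock element GAANNTTCNNGAA. These matched 0.325, 0.0171, 9.05, 3.14, 0.074 and 0.441% of all promoters in that order. Both strands were searched, the 2 matches did not overlap another motif, and a match is a description of the letters only.

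Bortezomib lowered the RNA of 6 of the 9 genes and raised that of 1, APOE, against DMSO. The median log2 fold change over the 9 was -0.89, beside 0.00 over all genes tested, where 27.6% were called higher and 25.8% lower. APOC3 fell the most, to 25.5% of its DMSO level, followed by APOH at 41.8%, APOM at 47.3%, MTTP at 49.2%, APOA2 at 53.9% and APOA1 at 65.1%. APOB and APOC1 were at 87.6 and 88.0% and were not called. Scaling by library totals in place of TMM lowers the median of all genes by 0.50 on the log2 scale in this comparison, so that of the genes called, 51.7% were higher with TMM and 19.2% with totals. Under that scaling APOE showed no difference (log2 fold change -0.02, adjusted p = 0.92), and APOB (-0.69) and APOC1 (-0.68) were called lower.

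APOB (GRCh37 chr2:21224301-21266945, minus strand) codes for the structural protein of very-low-density and low-density lipoprotein. Its level was 3036, 2775, 3084 and 2980 CPM in the DMSO libraries and 2668, 2707, 2808 and 2223 with bortezomib. The highest bortezomib library overlapped the lowest DMSO library. The log2 fold change was -0.19 ± 0.10 (SE; 95% interval -0.40 to 0.02), with an adjusted p of 0.125. It was called lower when only these groups entered the fit (-0.22, adjusted p = 0.00972), with no filter on low counts (-0.27), with upper-quartile scaling (-0.27) and without bortezomib replicate 3 (-0.28, adjusted p = 0.0482).

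MTTP (chr4:100485238-100545154, plus strand) was measured at 68.3, 64.8, 78.1 and 71.4 CPM in DMSO. With bortezomib its libraries held 29.9, 37.6, 38.4 and 32.8. Every bortezomib library lay below every DMSO library, with a log2 fold change of -1.02 ± 0.13 and an adjusted p of 4.59e-08. An unnamed antisense gene overlaps the last exon of MTTP and an unnamed same-strand gene that of APOE, and neither was analysed here.

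APOA1 (chr11:116706467-116708338, minus strand), whose protein is the main one of high-density lipoprotein, was measured at 1705, 1780, 1728 and 1758 CPM in DMSO and at 1184, 1114, 1025 and 1215 with bortezomib. APOA2 (chr1:161192082-161193421, minus strand), coding for the next most abundant protein of that particle, went from 2228, 2330, 2160 and 2436 to 1281, 1185, 1226 and 1244. Neither pair of groups overlapped. The log2 fold changes were -0.62 ± 0.074 for APOA1 and -0.89 ± 0.078 for APOA2, with adjusted p of 1.25e-08 and 1.41e-11. The last exon of APOA2 overlaps an opposite-strand gene, AL590714.1, that had 2 reads in all libraries together. An antisense gene, APOA1-AS, overlaps the last exon of APOA1 and was not analysed here. Since the strand setting of the counting is not given in the sources used here, reads of APOA1 and of its antisense partner cannot be told apart.

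APOM (chr6:31620193-31625987, plus strand) was the least abundant of the 9. Its DMSO libraries held 27.8, 30.96, 31.2 and 35.2 CPM and its bortezomib libraries 17.7, 14.9, 16.7 and 9.72. The groups did not overlap, and the log2 fold change was -1.08 ± 0.15, with an adjusted p of 2.93e-07. The 4th bortezomib library lay well below the other three, which returns in the comparison with nelfinavir.

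APOC3 (chr11:116700422-116703788, plus strand) codes for an inhibitor of lipoprotein lipase and of remnant uptake. It was at 159, 182, 191 and 193 CPM in DMSO and at 40.8, 45.2, 44.3 and 54.7 with bortezomib. This 3.92-fold drop (log2 fold change -1.97 ± 0.13, adjusted p = 2.36e-14) moved it from rank 633 to rank 3260 by mean level. APOC1 (chr19:45417504-45422606, plus strand), which codes for an inhibitor of cholesteryl ester transfer, was at 510 ± 67.1 CPM in DMSO and at 449 ± 14.9 with bortezomib, a log2 fold change of -0.19 ± 0.12 with an adjusted p of 0.203. Its last 500 bases share a run of 108 bases at 99.1% identity with the pseudogene APOC1P1, which was not analysed here, so its level is uncertain to that extent.

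APOE (chr19:45409048-45412650, plus strand) codes for a ligand by which the liver takes up remnant particles. It was measured at 439, 365, 312 and 381 CPM in DMSO and at 593, 499, 455 and 546 with bortezomib. The ranges did not overlap, and the log2 fold change was 0.48 ± 0.12 with an adjusted p of 0.000752. As given above, the difference is not seen with scaling by library totals.

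APOH (chr17:64208151-64252643, minus strand) went from 1495, 1501, 1718 and 1670 CPM in DMSO to 712, 632, 650 and 677 with bortezomib. The groups did not overlap, and the log2 fold change was -1.26 ± 0.087, with an adjusted p of 5.33e-14.

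**Figure D2:**
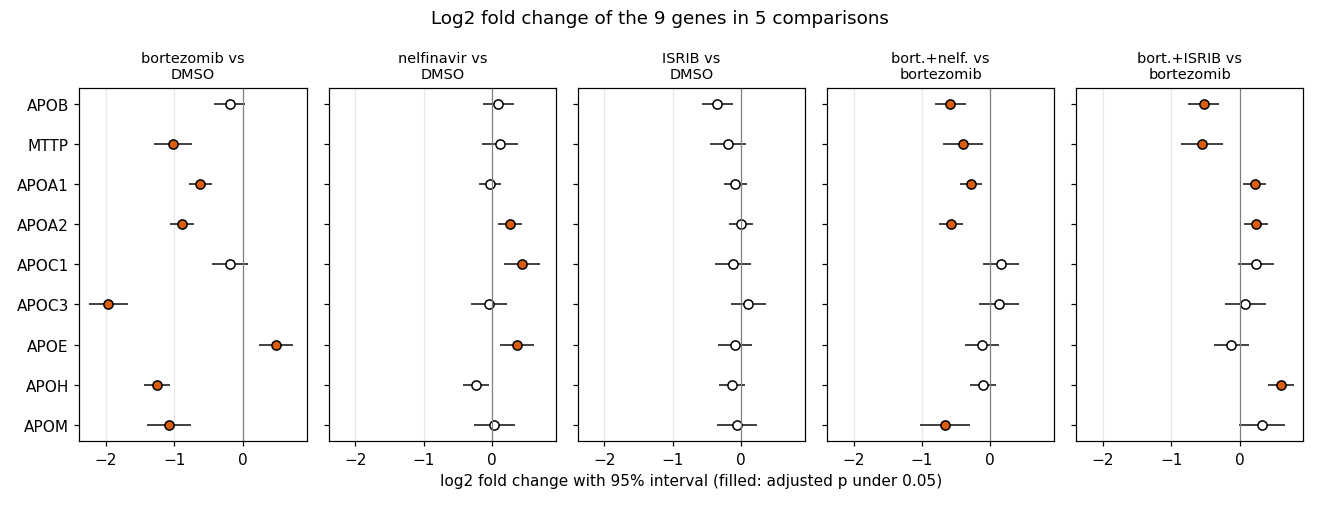
Log2 fold change (horizontal axis) of each of the 9 genes (vertical axis) with its 95% interval in 5 comparisons, from edgeR with TMM scaling. Filled circles have an adjusted p under 0.05. APOC3 is at -1.97 for bortezomib against DMSO, and with bortezomib present APOH is at -0.11 when nelfinavir is added and at 0.61 when ISRIB is added.

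Nelfinavir alone raised 3 of the 9 genes and lowered 0, beside 10.4% of all genes higher and 8.84% lower. APOC1 rose to 730, 766, 681 and 590 CPM from 566, 569, 441 and 464 in DMSO (log2 fold change 0.44 ± 0.12, adjusted p = 0.0079), and the groups did not overlap. APOA2 rose to 2650, 2762, 2914 and 2671 (0.27 ± 0.077, adjusted p = 0.0127), above every DMSO library. This call was narrowly lost without nelfinavir replicate 3 (0.24, adjusted p = 0.0502). APOE was at 605, 464, 435 and 428 with nelfinavir, and the lower pair of these libraries lay just below the highest DMSO library at 439. Its log2 fold change of 0.37 ± 0.12 (adjusted p = 0.0219) rests on few libraries: it was lost without nelfinavir replicate 1 (0.24, adjusted p = 0.171), without DMSO replicate 2 (0.34, adjusted p = 0.068) or without DMSO replicate 3 (0.29, adjusted p = 0.109). It was also lost with scaling by library totals (0.34, adjusted p = 0.0538).

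APOH went the other way with nelfinavir, at 1309, 1528, 1293 and 1314 CPM. Its log2 fold change of -0.23 ± 0.086 missed the threshold (adjusted p = 0.0561). It passed under 7 other settings, with log2 fold changes of -0.23 to -0.26, and without nelfinavir replicate 2, the library at 1528 (-0.29, adjusted p = 0.022), or without DMSO replicate 2 (-0.27, adjusted p = 0.0434). The remaining 5 genes had log2 fold changes between -0.05 for APOC3 and 0.12 for MTTP, with 95% intervals that reached at most 0.36 in the direction of a rise and -0.30 in that of a fall.

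ISRIB alone called 0 of the 9 genes and 0% of all genes in either direction, by edgeR, while 702 genes and 1 of the 9 had an unadjusted p under 0.05. DESeq2 called 3 of all genes lower, 0 higher and 0 of the 9. The single member was APOB, at 2135, 2407, 2365 and 2392 CPM with ISRIB, all below the lowest DMSO value of 2775. Its log2 fold change was -0.35 ± 0.10 (unadjusted p = 0.00187, adjusted p = 0.471). In a fit of these 2 groups alone it was called lower (adjusted p = 0.0153), as 77 genes were, against 4 higher, and likewise with no filter on low counts (adjusted p = 0.0495).

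Adding nelfinavir to bortezomib lowered 5 of the 9 genes further and raised 0. The median log2 fold change over the 9 was -0.28, beside -0.02 over all genes, where 15.6% were called higher and 13.4% lower. Of the 8 hepatocyte markers 5 were also called lower and 0 higher, with a median of -0.326, so the further fall was not particular to the 9 genes. This comparison shares the bortezomib libraries with the comparison to DMSO, so a low or high bortezomib library enters both with opposite sign. The 5 genes were APOB, MTTP, APOA1, APOA2 and APOM, while APOC1, APOC3, APOE and APOH were not called. APOB, not called with bortezomib alone, fell to 1670, 1434, 1706 and 2112 CPM, below every bortezomib library (-0.59 ± 0.10, adjusted p = 5.97e-05). APOA2 fell to 817, 752, 866 and 871 (-0.58 ± 0.078, adjusted p = 7.89e-07), and APOA1 to 957, 920, 963 and 894 (-0.28 ± 0.074, adjusted p = 0.00415). These groups also lay apart from their bortezomib libraries. The APOA1 call was lost without bortezomib replicate 4 (-0.21, adjusted p = 0.0543) and with no filter on low counts (-0.24, adjusted p = 0.0526).

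APOM with the combination was at 9.08, 9.31, 9.43 and 9.57 CPM, just below the lowest bortezomib library at 9.72 (-0.66 ± 0.17, adjusted p = 0.00398). In a fit of these groups alone the value was -0.68 with an adjusted p of 0.0534. MTTP was at 31.3, 23.8, 20.4 and 29.8 and overlapped bortezomib alone (-0.40 ± 0.14, adjusted p = 0.03). The MTTP call was lost without bortezomib replicate 2, 3 or 4 or without combination replicate 2 or 3, with log2 fold changes from -0.27 to -0.39.

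APOC3, APOC1, APOE and APOH did not pass the test when nelfinavir was added to bortezomib. APOC3, lowest of all relative to DMSO, was at 38.7, 53.1, 55.2 and 55.0 CPM (log2 fold change 0.13, 95% interval -0.15 to 0.41). APOC1 had a log2 fold change of 0.15 (-0.10 to 0.40), APOE of -0.12 (-0.36 to 0.12) and APOH of -0.11 (-0.29 to 0.07). A difference the size of that in APOM lies outside each of these 4 intervals.

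The difference between nelfinavir's change with bortezomib and its change without was itself tested, as an interaction. It was below 0 for 5 of the 9 genes, against 10% of all genes, namely APOA2, APOM, APOB, MTTP and APOE. APOA2 rose with nelfinavir alone and fell with nelfinavir on top of bortezomib, an interaction of -0.84 ± 0.11 (adjusted p = 7.12e-07). APOB had -0.68 ± 0.15 (adjusted p = 0.00112) and APOM -0.69 ± 0.22 (adjusted p = 0.0232). MTTP (-0.51 ± 0.18, adjusted p = 0.0474) and APOE (-0.49 ± 0.17, adjusted p = 0.0339) were nearer to the threshold. Leaving out single libraries left between 2 and 5 of these calls. That of APOE was lost without DMSO replicate 2 or 3, nelfinavir replicate 1, bortezomib replicate 1, 2 or 4 or combination replicate 2 or 3, at -0.34 to -0.47. That of APOM was lost without DMSO replicate 1, bortezomib replicate 1, 2 or 3 or combination replicate 1 or 2, at -0.55 to -0.64, and with no filter on low counts. That of MTTP was lost without any single library other than DMSO replicate 3, nelfinavir replicate 3, bortezomib replicate 1 and combination replicates 1 and 4, at -0.37 to -0.52, and under 4 other settings.

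Against nelfinavir alone, the combination of bortezomib and nelfinavir lowered 8 of the 9 genes, all but APOE, beside 28.4% of all genes lower. All 8 hepatocyte markers were called lower there as well, with a median of -0.78. APOA2 was at 30.1% of its nelfinavir level and APOM at 29.2%. APOC3 stood at 28.8%, MTTP at 34.5%, APOH at 45.5%, APOA1 at 54.7%, APOB at 54.8% and APOC1 at 72.1%. With scaling by library totals, higher genes made up 19.6% of those called here in place of 50.3%, and APOE, at 99.7%, was then also called lower (-0.51, adjusted p = 0.000743). Bortezomib against nelfinavir also gave 8 of 9 lower, beside 23.6% of all genes. There APOE was at 108% of its nelfinavir level (log2 fold change 0.11, adjusted p = 0.437), while scaling by library totals turned its sign (-0.36, adjusted p = 0.0154) and left 16.4% of called genes higher in place of 51.6%. The APOB value of -0.28 (adjusted p = 0.0264) was lost without nelfinavir replicate 1 (adjusted p = 0.0877) or bortezomib replicate 4 (adjusted p = 0.0641).

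Adding ISRIB to bortezomib split the genes. It raised 3 of the 9 and lowered 2, beside 6.89% of all genes higher and 5.34% lower, and scaling by library totals took higher genes from 56.3 to 40.5% of those called. APOH rose the most, to 1025, 1071, 900 and 1079 CPM, well above the highest bortezomib library at 712 and below the lowest DMSO library at 1495 (log2 fold change 0.61 ± 0.086, adjusted p = 5.92e-06). The difference between ISRIB's change in APOH with bortezomib and without it was 0.74 ± 0.12 (adjusted p = 0.00015), the 1 call among the 9, beside 2.92% of all genes. The split of interaction calls moves from 60.7% to 49.4% higher with scaling by library totals.

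APOA2 and APOA1 rose less with ISRIB. APOA2 was at 1432, 1449, 1646 and 1308 CPM, above every bortezomib library (0.24 ± 0.077, adjusted p = 0.0359). APOA1 was at 1339, 1439, 1337 and 1172 and overlapped bortezomib alone (0.22 ± 0.074, adjusted p = 0.0442). Both are marginal: the median-of-ratios scaling, scaling by library totals, no filter and a fit of the 2 groups each left APOH as the 1 gene called higher, and so did leaving out replicate 1, 2 or 3 of either group. The adjusted p without 1 of these libraries ran from 0.0635 for APOA2 up to 0.184 for APOA1, and without bortezomib replicate 4 the APOA2 value was 0.0743.

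APOB and MTTP fell when ISRIB was added. APOB was at 1700, 1736, 2262 and 1533 CPM (-0.53 ± 0.10, adjusted p = 0.000714), with the third library inside the bortezomib range. MTTP was at 24.9, 25.1, 17.9 and 27.4, below every bortezomib library (-0.55 ± 0.14, adjusted p = 0.00867). The interaction was not called for either gene, at -0.17 (95% interval -0.47 to 0.13) for APOB and -0.36 (-0.74 to 0.02) for MTTP. APOB and MTTP were thus lower with either compound added to bortezomib, in comparisons that share the same bortezomib libraries. As given above, the MTTP call with nelfinavir was lost without some single libraries. Between the 2 combinations APOB differed by -0.06 (-0.28 to 0.15) and MTTP by 0.15 (-0.15 to 0.44) on the log2 scale. APOM, APOA2, APOH and APOA1 were lower with nelfinavir than with ISRIB on top of bortezomib (log2 differences -0.99, -0.82, -0.72 and -0.50), 4 of 9, beside 11.2% of all genes.

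APOC1, APOC3, APOE and APOM were not called when ISRIB was added. APOM was at 19.6, 19.3, 21.5 and 13.8 CPM (0.33, 95% interval 0.00 to 0.66, adjusted p = 0.185), and APOC3 at 53.4, 45.4, 54.7 and 42.7 (0.09, -0.20 to 0.37). APOC1 ranged from 379 to 693, the widest spread of any group for this gene, and without replicate 4 of the combination it was called higher (0.38, adjusted p = 0.0286).

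Ordered by mean level, APOB ran from nelfinavir at 3157 through DMSO at 2969, bortezomib at 2602, ISRIB at 2324, bortezomib with ISRIB at 1808 and bortezomib with nelfinavir at 1730 CPM. The library ranges of each pair of neighbours in this order overlapped. APOH instead fell in steps, from DMSO at 1596, ISRIB at 1455 and nelfinavir at 1361, whose ranges overlapped, to bortezomib with ISRIB at 1019, and then to bortezomib at 668 and bortezomib with nelfinavir at 619, which overlapped each other. APOC3 formed a pair of blocks, 175 to 195 on average in the 3 groups without bortezomib and 46.3 to 50.5 in the 3 with it, with overlap inside each block and none between them.

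The genes lie partly in clusters, and neighbours were compared by the ratio of their reads within each library. Such a ratio needs no scaling between libraries, for neighbours as for any other pair of genes. APOC3 and APOA1 are 2678 bases apart on chromosome 11 and face each other from opposite strands. For each APOA1 read there were 0.0933, 0.102, 0.111 and 0.11 APOC3 reads in the DMSO libraries and 0.0345, 0.0406, 0.0433 and 0.045 with bortezomib. The ratio was 0.0542 ± 0.0094 with bortezomib and nelfinavir and 0.0372 ± 0.0042 with bortezomib and ISRIB, and no library with bortezomib reached any library without it. Unequal change of the neighbours therefore does not depend on how libraries were scaled.

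APOE and APOC1 are 4853 bases apart on chromosome 19 and share a strand. There were 1.29, 1.56, 1.42 and 1.22 APOC1 reads per APOE read in DMSO and 0.794, 0.894, 0.966 and 0.805 with bortezomib, ranges that did not overlap. With nelfinavir alone the ratio ran from 1.21 to 1.65, overlapping the DMSO range. With bortezomib and nelfinavir it ran from 0.908 to 1.18, below every DMSO library, and with bortezomib and ISRIB from 0.948 to 1.36, reaching into the DMSO range. No test was run on these ratios.

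**Figure D3:**
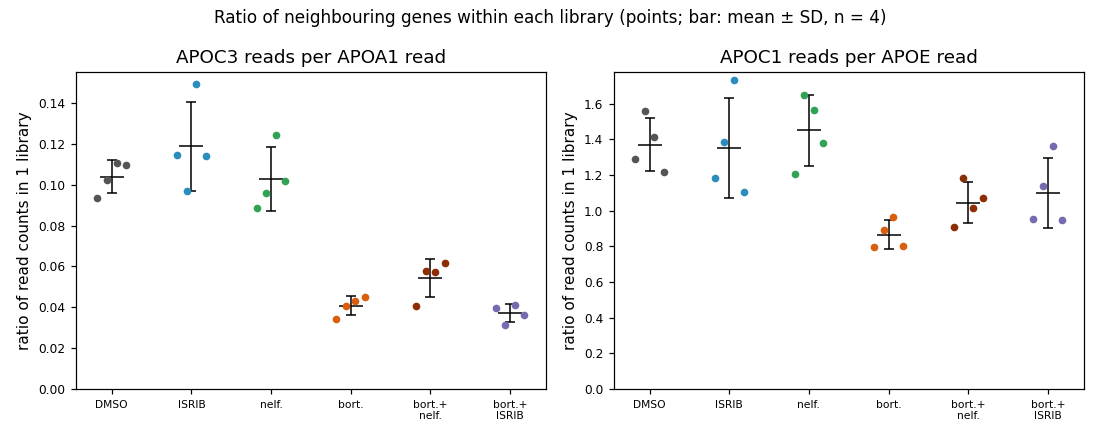
Reads of APOC3 per read of APOA1 (left) and of APOC1 per read of APOE (right) within each library (vertical axes, from 0) in the 6 groups (horizontal axes). Points are libraries and the bar with whiskers is the mean ± SD, n = 4. The left ratio is 0.104 on average in DMSO and 0.0408 with bortezomib.

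The rest of the cluster on chromosome 11 was also measured. APOA5 (chr11:116660083-116663136), which codes for an activator of triglyceride lipolysis, was at 55.9 ± 3.4 CPM in DMSO, 19.7 ± 2.5 with bortezomib and 7.98 ± 2.0 with bortezomib and nelfinavir. It fell with bortezomib (-1.50 ± 0.15, adjusted p = 3.8e-10) and again when nelfinavir was added (-1.30 ± 0.18, adjusted p = 1.82e-06). APOA4 (chr11:116691416-116694020) was at 8.43 ± 1.4 in DMSO and 4.53 ± 1.1 with bortezomib (-0.89 ± 0.25, adjusted p = 0.00355). APOC2 and APOC4 were not analysed here.

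Beyond the 9, a list of 19 other apolipoproteins had 11 tested genes. With bortezomib 2 were higher and 5 lower, beside 27.6 and 25.8% of all genes, with a median of -0.38, and with scaling by library totals 1 was higher and 7 lower. CLU, which codes for the chaperone-like apolipoprotein J, rose from 253 ± 14.9 to 796 ± 45.8 CPM (1.65 ± 0.093, adjusted p = 2.06e-16). SAA4, the constitutive serum amyloid A, fell from 311 ± 26.05 to 109 ± 9.7 (-1.51 ± 0.092, adjusted p = 1.81e-15) and rose to 223 ± 13.4 when ISRIB was added (1.03 ± 0.092, adjusted p = 8.7e-10). APOL3 (-2.95) and APOF (-2.17) also fell, with at most 13 and 43 reads in any library. With nelfinavir alone APOL6, a lipid-binding protein of the cytosol, rose by 1.38 ± 0.13 and APOL3 fell by 1.88.

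Of 21 partners of assembly and export, 20 were tested, and with bortezomib 7 were higher and 5 lower, beside 27.6 and 25.8% of all genes, with a median of 0.10. With scaling by library totals this turned to 2 higher and 10 lower, with a median of -0.40. DGAT2, an enzyme of the last step of triglyceride synthesis, went from 87.7 ± 2.3 CPM in DMSO to 40.6 ± 4.6 with bortezomib (-1.11 ± 0.12). It fell further to 6.47 ± 1.2 with nelfinavir added (-2.64 ± 0.16, adjusted p = 2.62e-14) and to 12.7 ± 2.2 with ISRIB added (-1.67 ± 0.14, adjusted p = 2.82e-10). DGAT2 was thus lower with either compound on top of bortezomib, as APOB and MTTP were, again against the same bortezomib libraries. SMLR1 fell to 32.1 ± 11.4 from 119 ± 9.6 with bortezomib (-1.89 ± 0.14). MIA2 (1.77), TMEM41B (1.62) and VMP1 (1.42), which act in export from the endoplasmic reticulum and in lipid scrambling, rose, MIA2 from a mean of 0.605 to 2.13 CPM. MIA2 had at most 25 reads in any library, and its bortezomib replicate 2, at 0.194 CPM, lay inside the DMSO range of 0.130 to 0.979. With nelfinavir added to bortezomib 6 of the 20 were higher and 6 lower, beside 15.6 and 13.4% of all genes. With ISRIB added 3 were higher and 4 lower, beside 6.89 and 5.34%.

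Of 19 transcriptional regulators of apolipoprotein genes, all tested, 18 were lower and 1 higher with bortezomib, beside 25.8 and 27.6% of all genes, 12 of the 18 by 2-fold or more, and the median was -1.19. These counts were the same with scaling by library totals. PPARGC1A, a coactivator of hepatic metabolism, went from 7.16 to 9.09 CPM in the DMSO libraries to between 0 and 1.28 (-4.07 ± 0.45). ONECUT1 (-3.13 ± 0.52) and NR2F2 (-2.14 ± 0.15) code for transcription factors of liver and vessel development and fell as well, ONECUT1 to a mean of 0.683 CPM. NR0B2, the small heterodimer partner that represses other nuclear receptors, was the gene that rose, from 35.6 ± 3.1 to 204 ± 10.8 (2.52 ± 0.084, adjusted p = 2.38e-22). HNF4A, a main activator of this gene family, was named after its values were seen, and changed from 107 ± 2.8 to 86.6 ± 9.0 (-0.30 ± 0.11, adjusted p = 0.0216). It was at 160 ± 6.1 with nelfinavir alone (0.58 ± 0.11, adjusted p = 0.000136).

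When nelfinavir was added to bortezomib, 8 of the 19 regulators were higher and 5 lower, beside 15.6 and 13.4% of all genes, with a median of 0.34. PPARGC1A (2.67), FOXA2 (1.29) and NR2F1 (1.29) rose by over 2-fold in this comparison, in which 0 of the 9 genes rose. With ISRIB added, 6 were higher and 2 lower, beside 6.89 and 5.34% of all genes, with a median of 0.29, among them PPARGC1A (2.19) and FOXA1 (1.08). Whether any of these regulators acted on the 9 genes was not tested.

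**Figure D4:**
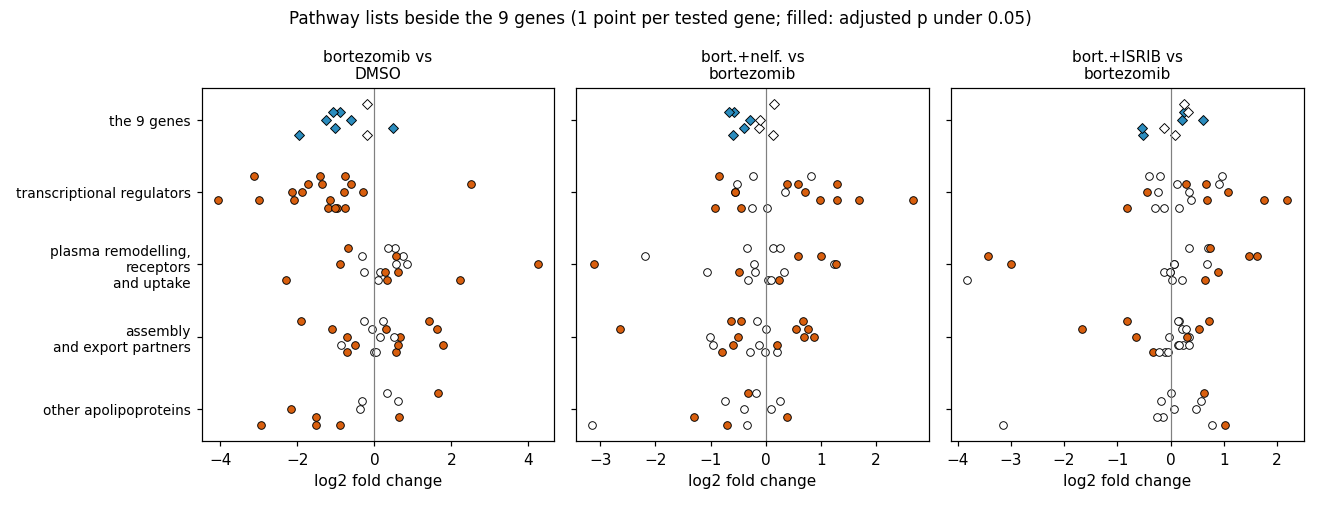
Log2 fold change (horizontal axes) of each tested gene of 4 pathway lists (circles) and of the 9 genes (diamonds) in 3 comparisons. Filled symbols have an adjusted p under 0.05. With bortezomib, 18 of 19 regulators lie below 0, and with nelfinavir added to bortezomib 8 regulators but 0 of the 9 genes are called higher.

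For each of the 9, the nearest genes among all tested were sought by the root mean square difference of their 5 log2 differences from DMSO. The genes nearest to APOB were GDAP1 (0.083) and LIG4 (0.099), to MTTP SH3PXD2A (0.086) and FAM185A (0.11), and to APOA1 ARPC1B (0.065) and ANAPC11 (0.067). Those nearest to APOA2 were RGS3 (0.072) and PRAP1 (0.079), to APOM MCF2L (0.085) and CTD-2287O16.5 (0.091), and to APOH GPR135 (0.091) and RP11-85F14.5 (0.092). Those nearest to APOC1 were MAP2K5 (0.078) and RP1-239B22.5 (0.079), to APOC3 SLC6A4 (0.065) and HOXA-AS2 (0.074), and to APOE GLB1 (0.054) and RFFL (0.063). Among the 9 themselves APOA2 and APOM were the closest pair, 0.18 apart, with 27 genes closer to APOA2 than APOM was. APOC1 and APOE, neighbours in the genome, were 0.38 apart, with 2714 genes closer to APOC1 than APOE was. The values rest on the means of 4 libraries and share the DMSO group. LIG4, FAM185A, PRAP1, CTD-2287O16.5, GPR135 and RP11-85F14.5 were at only 1.76 to 4.44 CPM in DMSO, so their likeness rests on low counts.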

How the data were processed

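Total RNA of 24 HepG2 cultures was made into 3′-end libraries with the Lexogen QuantSeq kit (FWD) and sequenced as single-end reads. Per the labels and the methods, the authors trimmed reads with cutadapt 2.8, aligned them with STAR to hg19 (GRCh37) within the nf-core RNA-Seq pipeline, and deposited whole-number read counts per gene, not normalized, for the protein-coding, lincRNA and antisense genes of an Ensembl annotation of that build. Which program counted the reads, on which strand, and whether molecular identifiers were used is not given in the sources used here. Groups came from the treatment labels, with 4 libraries in each of 6 groups. Genes were kept with filterByExpr (minimum count 5, total 25). All 24 libraries entered 1 quasi-likelihood fit in edgeR 4.0.16 (R 4.3.3, limma 3.58.1) with TMM factors, and p-values were adjusted by Benjamini-Hochberg over 12685 genes and called under 0.05. The fit was tested on simulated data. SE is the absolute log2 fold change divided by the square root of F. The p-values weigh each difference against the spread between cultures of the same group, estimated over all 24 libraries together.

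The members, gene lists and tests were chosen with earlier results of these data known. All 9 members are named. From the lists, called genes with a fold of 2 or more may be named, at most 5 per list and comparison, largest first. APOA4, APOA5, APOC2 and APOC4 are always named, and for each member the 2 genes most like it. Some genes that this rule would name are not reported here. HNF4A and the ratios of neighbouring genes were added after values were seen, as were the motifs and the list counts with library totals. Alternatives were other scalings (DESeq2 1.42.0 median of ratios, upper quartile, library totals), mitochondrial genes removed, the DESeq2 test, other filters (none, or counts of 10 and 15), only the groups compared, a replicate block, thinned counts and each library left out. Gene positions and overlaps came from GENCODE on GRCh37, near copies from a BLAST search of the last 500 bases of each transcript, and promoters from RefSeq on GRCh38.p14.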

Additional observations from a re-analysis of the deposited data

Results flagged for a closer look

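A sample stood apart from the other three of its group in 3 of the 54 sets of 4 libraries tested with Dixon's criterion, where chance alone flags about 1 in 20. They were the lowest ISRIB library for APOB, at 2135 CPM, the lowest library with bortezomib and nelfinavir for APOC3, at 38.7, and the highest nelfinavir library for APOH, at 1528.

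For 6 results the change under 1 compound differed with and without bortezomib by the interaction test. The log2 differences for nelfinavir were -0.84 for APOA2, -0.69 for APOM, -0.68 for APOB, -0.51 for MTTP and -0.49 for APOE, and that for ISRIB was 0.74 for APOH. The values of APOM, MTTP and APOE lost their call when some single libraries were left out, whereas those of APOA2, APOB and APOH did not.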

How the results depend on the processing

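Over the 90 values of the 9 genes in 10 comparisons, 10 alternative settings gave 860 values on the same side of the threshold, 18 newly called, 20 no longer called and 2 reversed. Leaving out single libraries gave 809, 5, 50 and 0. Among values that were not called, 10 changed sign under an alternative setting and 25 with a library left out. Both reversals were of APOE with library totals, against DMSO with bortezomib (-0.016, adjusted p = 0.92, so that 0 genes were called higher there) and for bortezomib against nelfinavir (-0.36). The cause was not tested beyond the scaling itself. With nelfinavir alone 1 gene, APOH, was called lower with median-of-ratios, upper-quartile and library-total scaling, with mitochondrial genes removed, by the DESeq2 test, with a replicate block and in a fit of the groups compared (0 to 1 with libraries left out). With ISRIB alone 1 gene, APOB, was called lower with no filter and in a fit of the groups compared. With nelfinavir added to bortezomib 3 genes were lower with no filter and in a fit of the groups compared (3 to 5 with libraries left out). With ISRIB added, 1 gene was higher with median-of-ratios scaling, library totals, no filter and a fit of the groups compared (1 to 4 with libraries left out). The nelfinavir interaction was below 0 for 3 genes with no filter (2 to 5 with libraries left out), and the ISRIB interaction above 0 for 2 genes by the DESeq2 test (1 to 2 with libraries left out). Over all genes, scaling by library totals gave 1490 higher and 6265 lower for bortezomib against DMSO, in place of 3500 and 3274, 1197 and 6110 for bortezomib against nelfinavir (3191 and 2989) and 1584 and 6517 for the combination with nelfinavir against nelfinavir (3639 and 3600). The DESeq2 test called 411 genes with an ISRIB interaction below 0 in place of 240, and with no filter ISRIB alone gave 5 higher and 34 lower. Fits of only the groups compared gave 1925 and 1948 for nelfinavir (1320 and 1121), 1284 and 962 for nelfinavir added to bortezomib (1974 and 1694), 510 and 356 for ISRIB added (874 and 678), 985 and 755 between the combinations (1671 and 1425) and 4 and 77 for ISRIB alone (0 and 0). Replicate numbers are shared between groups, but the labels tie them to no common culture or day, and 10 of 60 same-numbered pairs had deviations correlated above 0.1, against 7 of 180 others. The replicate block changed 1 call among the 90 values, that of APOH with nelfinavir (-0.24, adjusted p = 0.0395), and gave 1363 genes higher and 1203 lower there. The least abundant gene, APOM, had means of 9.35 to 32.0 CPM, so its differences have the widest intervals.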

Other observations

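Of 23 genes of lipoprotein remodelling, receptors and uptake, 18 were tested, and with bortezomib 6 were higher and 3 lower, beside 27.6 and 25.8% of all genes. Scaling by library totals turned this to 2 higher and 6 lower, and the count over all genes to 1490 higher and 6265 lower. VLDLR, a receptor of triglyceride-rich particles, was at a mean of 0.195 CPM (n = 4) in DMSO, 4.0 with bortezomib and 5.79 with nelfinavir. The sterol exporter gene ABCG5 had a mean of 1.91 CPM with bortezomib, from libraries at 2.57, 2.33, 2.75 and 0. Its mean was 0.20 with nelfinavir added and 0.232 with ISRIB added, at low counts in each. The bortezomib library at 0 overlapped both combinations.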
